A study of Mus musculus with 23 samples.

Results

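The baseline described here is the poly-A RNA of the hippocampus in wild-type (WT) mice, in the 6 WT libraries out of 23 in the study. They were taken by their genotype label alone, so no measured value chose them. Each library came from both hippocampi of a single mouse aged about 5 months, and 6 mice were labelled WT. The other 17 libraries came from mice lacking p16 (p16KO, labelled P16<KO/KO>, n = 6), mice with the App knock-in (AppNLGF, labelled APP<NLGF/NLGF>, n = 5) and mice with both (AppNLGF_p16KO, labelled APP<NLGF/NLGF>P16<KO/KO>, n = 6), of the same age. The labels used here give neither sex nor strain. With 1 library per mouse, variation between mice and variation between libraries cannot be told apart.

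The hippocampus is a folded sheet of cortex that stores memories of places and events. Granule cells of the dentate gyrus excite pyramidal cells of field CA3, and these excite pyramidal cells of field CA1. Interneurons that release GABA restrain both, and astrocytes, myelin-forming oligodendrocytes, microglia and blood vessels surround them. The choroid plexus, an epithelium in the ventricles that makes cerebrospinal fluid, lies beside the hippocampus, as do thalamus and cortex, and the striatum lies in front of it.

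WT libraries held 54.6e6 to 58.7e6 counted reads each, and the other genotypes 40.7e6 to 61.2e6. Between pairs of WT libraries, the Spearman correlation across 14632 genes ran from 0.987 to 0.995. Every pair differed by more than sampling noise, with a chi-square per degree of freedom of 19.7 to 104. Reads on Cdkn2a, the gene that encodes p16, were too few to check the labels. They summed to 17 in WT, 4 in p16KO, 25 in AppNLGF and 24 in AppNLGF_p16KO. App, whose count does not separate the knock-in alleles from the normal gene, had a median of 1657 CPM (reads relative to all counted reads of the library) in WT, 1615 in p16KO, 1577 in AppNLGF and 1537 in AppNLGF_p16KO. Markers of hippocampal fields were present in every WT library, whereas libraries WT 1, WT 2, WT 4 and WT 5 stood apart in gene groups described below.

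Of 37173 genes in the count table, 32753 had a read in at least 1 WT library and 4420 had none. The number at 1 CPM or more in all 6 libraries was 14004, of which 13109 were protein-coding genes, 621 were long non-coding RNAs and 96 were pseudogenes. The counts were spread over many genes: the 10 with most reads held 4.83% of them and the top 100 held 16.3%. It took 1122 genes to reach 50% of the reads. A mean of 100 CPM or more was found for 2372 genes.

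By read count, the mitochondrial gene mt-Co1, a subunit of cytochrome oxidase, led with 11680, 9068, 11529, 9643, 10595 and 11048 CPM in WT 1 to WT 6, or 10594 ± 1048 CPM (SD, n = 6). It was followed by mt-Cytb at 7772 ± 781 CPM and by mt-Nd1 at 6124 ± 739 CPM, which encode cytochrome b and a subunit of complex I. The first nuclear gene was Camk2a, the alpha subunit of the calcium/calmodulin kinase of excitatory synapses. It had 3828, 4160, 4256, 3888, 4094 and 3664 CPM, a range of 1.16 between highest and lowest. Slc1a2, the main glutamate transporter of astrocytes, averaged 3402 ± 88.7 CPM. Also among the 20 genes with most reads were Cpe, a peptide-processing enzyme (2971 ± 226 CPM), Mbp, myelin basic protein (2485 ± 266 CPM), Snap25, a SNARE protein of transmitter release (2480 ± 66.4 CPM), and Atp1b1, a sodium pump subunit (2453 ± 88.6 CPM).

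Read counts grow with transcript length, so levels of different genes were compared after division by length, as TPM, the length-scaled unit that sums to the same total in every library. The deposited table gives the median transcript length of each gene. On that scale mt-Co1 (8659 ± 802 TPM), mt-Cytb (8586 ± 895 TPM) and mt-Nd1 (8090 ± 1029 TPM) again led. Slc1a2 (7982 ± 250 TPM) and the neuronal non-coding RNA Bc1 (7596 ± 6329 TPM) came next, ahead of Cpe (5870 ± 379 TPM), Atp1b1 (4975 ± 153 TPM), Calm3, a calmodulin gene (4251 ± 159 TPM), and Syp, the synaptic vesicle protein synaptophysin (4137 ± 214 TPM). Of the 20 genes highest in TPM, 12 were also among the 20 with most reads. The choice of length moved single genes. The median transcript of Slc1a2 is 538.5 bases, while its exons joined together cover 13133 bases in the GENCODE M21 annotation. With the joined length Slc1a2 had 1034 TPM and rank 72, and 9 of the 20 genes highest in TPM stayed in the top 20. The order of nuclear genes by TPM is therefore given for the deposited lengths only.

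**Figure D1:**
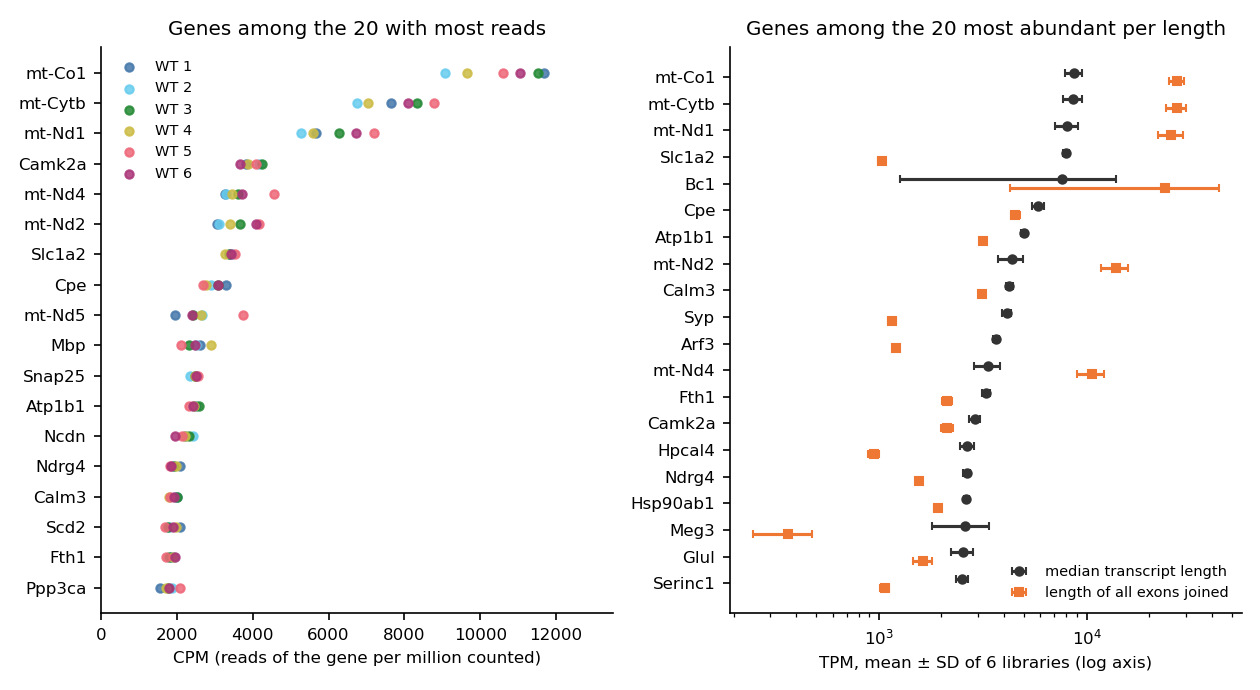
Left, CPM of genes among the 20 with most reads, 1 point per WT library. Right, mean TPM ± SD (n = 6, log axis) of genes among the 20 highest in TPM, with the deposited median transcript length (black) and with all exons joined (orange); Slc1a2 had 7982 TPM with its deposited length of 538.5 bases and 1034 TPM with 13133 bases.

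In CPM, mt-Nd5, a subunit of complex I, was the least even of the 20, with 1948, 2652, 2438, 2638, 3746 and 2389. Mitochondrially encoded genes held 3.45 ± 0.325% of the reads (SD, n = 6), with 3.34%, 3.03%, 3.59%, 3.19%, 3.92% and 3.62% in WT 1 to WT 6. WT 5 was highest and WT 2 lowest. How much of each gene is unlike other annotated genes was measured as the share of its 50-base words, the read length, found in no other annotated gene's transcripts. The words came from the longest transcript of the gene, and sequence outside annotated transcripts was not searched. It was 0% for mt-Co2, 0.136% for mt-Co3, 0.475% for mt-Atp6 and 2.01% for mt-Nd3, and no WT library had more than 4 reads on any of them, while mt-Cytb and mt-Nd1 reached 100%. Above those 4 genes the level did not follow the share: mt-Nd6 had 27.4 CPM with 100%, mt-Co1 had 48.9% and mt-Nd4 had 3650 CPM with 37.8%. Only uniquely aligned reads were counted, per the submitters' protocols, so the level of those 4 genes cannot be read from this table. Nuclear genes with copies elsewhere also differed in this share. Ftl1, the ferritin light chain, had 16.5 ± 1.43 CPM with 9.36% unique words, whereas the heavy chain Fth1 had 1855 ± 87.0 CPM with 97.1%. Gapdh, a glycolytic enzyme often used as a reference gene, had 11.5 ± 0.586 CPM with 72.2% unique words, and Tuba1a, an alpha-tubulin of neurons, had 207 ± 22.0 CPM with 24.5%. Level and share did not run in parallel among these nuclear genes. Copies outside annotated transcripts are missed by the share, and whether copies lower these counts was not tested. Of the genes with a mean of 1 CPM or more, 114 had under 20% unique words.

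By gene class, protein-coding genes held 98.6 ± 0.0877% of the reads. Long non-coding classes held 1.19 ± 0.0837%, within a span of 1.07% (WT 4) to 1.32% (WT 2), and pseudogenes held 0.101 ± 0.00213%. Long intergenic RNAs (lincRNA) made up 0.745 ± 0.0806%, processed transcripts 0.197 ± 0.00702%, antisense RNAs 0.151 ± 0.00717% and TEC genes, a class of transcripts that await experimental proof, 0.111 ± 0.00991%. Small RNAs were at the floor after poly-A selection, with 0.00277% for miRNA genes, 0.00214% for snoRNA genes and 0.000798% for snRNA genes. Per length, protein-coding genes held 97.7% and long non-coding classes 1.92 ± 0.564% of TPM.

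Among lincRNAs the highest in TPM were Bc1, Meg3 and Malat1. Meg3, an imprinted RNA expressed from the maternal chromosome, had 973, 1985, 1388, 1685, 2356 and 1457 CPM in WT 1 to WT 6. Malat1, an RNA of nuclear speckles, had 449, 486, 541, 497, 790 and 455 CPM. Both were highest in WT 5. Rian, an imprinted transcript from the same locus as Meg3, varied little at 583 ± 20.8 CPM, as did Gas5, a host gene of small nucleolar RNAs, at 110 ± 5.35 CPM. Rab10os led the antisense class with 42.7 ± 4.54 CPM, and Particl led the TEC class with 14.3 ± 0.666 CPM.

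Bc1 is a short RNA made by RNA polymerase III and carried into dendrites, where it represses translation. Its whole sequence is shown because it was the non-coding RNA highest in TPM and, at the same time, among the most variable. In mean reads Bc1 stood below Meg3 (1017 against 1641 CPM), so its lead in TPM rests on its short length. It lies on chromosome 7 (chr7:144914470-144914637, plus strand, GRCm38), spans 168 bases in GENCODE M21 and is 41.7% A; the capitals mark its longest run of A, 23 bases at positions 77 to 99 from the 5′ end.
Bc1: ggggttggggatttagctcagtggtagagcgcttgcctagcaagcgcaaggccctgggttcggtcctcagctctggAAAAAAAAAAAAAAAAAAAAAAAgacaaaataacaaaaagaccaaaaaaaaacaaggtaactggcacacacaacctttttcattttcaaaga
Bc1 had 2402, 1714, 882, 326, 412 and 367 CPM in WT 1 to WT 6. Library WT 1 was 7.36 times library WT 4, and 68.9% of the 50-base words of Bc1 were unique.

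Neuronal markers were read in every library. The 10 pan-neuronal genes summed to 8334 ± 300 CPM and their total differed 1.11-fold between the highest and the lowest library. Highest per length were Eno2, neuronal enolase (1792 TPM), Snap25 (1481 TPM) and Uchl1, a neuronal deubiquitinase (880 TPM). The 8 genes of glutamatergic neurons summed to 6221 ± 273 CPM and were led by Camk2a (2902 TPM) and Slc17a7, the vesicular glutamate transporter (716 TPM). The 16 interneuron genes summed to 2238 ± 61.3 CPM, among them the peptide Cck (580 TPM) and the GABA-making enzyme Gad1 (328 TPM). Somatostatin (Sst) stood at 306 ± 14.5 TPM, parvalbumin (Pvalb) at 50.4 TPM and Vip at 14.7 TPM. In bulk RNA, fewer cells of a type and less RNA per cell cannot be told apart, so these levels are not cell numbers.

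Each hippocampal field was represented. CA1 genes included Mpped1 (271 ± 16.9 CPM), Wfs1, a protein of the endoplasmic reticulum (154 ± 20.0 CPM), and Fibcd1 (160 ± 14.6 CPM). CA2 genes included Rgs14, a brake on plasticity in that field (98.1 ± 7.60 CPM), and Amigo2 (30.9 ± 3.55 CPM). CA3 genes included Grik4, a kainate receptor subunit (62.1 ± 7.56 CPM), and Bok (53.8 ± 5.45 CPM). Dentate granule genes included Prox1, the transcription factor that sets granule cell identity (102 ± 14.0 CPM), and C1ql2, a secreted synaptic organiser (64.3 ± 15.2 CPM). C1ql2 had 64.0, 52.6, 54.0, 49.4, 82.3 and 83.4 CPM, so WT 5 and WT 6 lay above the other 4. The summed dentate list was highest in WT 5 (838 CPM) and lowest in WT 1 (592 CPM). The CA1 list was lowest in WT 5 (812 CPM) and highest in WT 3 (950 CPM). WT 1 and WT 5 also lay at the ends of the trend with exon length given below, whose part in this was not tested.

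Signs of adult neurogenesis were present at low level. Dcx, a microtubule protein of newborn neurons, had 34.7 ± 2.61 CPM and Sox11 had 19.7 ± 1.83 CPM. Eomes, a factor of intermediate progenitors, stood at 0.400 CPM and the proliferation antigen Mki67 at 0.245 CPM.

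Marker lists differ in the number and choice of genes, so their sums do not rank cell types. The 14 astrocyte genes, Slc1a2 among them with 3402 CPM, summed to 8858 ± 296 CPM with a range of 1.08-fold. Their leaders per length were Slc1a2, Glul, glutamine synthetase (2535 ± 303 TPM), and Aldoc, an aldolase (1437 TPM). The 14 oligodendrocyte genes summed to 6053 ± 633 CPM, with 6034, 6043, 5518, 7119, 5327 and 6280 CPM in WT 1 to WT 6. WT 4 was highest and WT 5 lowest, and 10 of the 14 genes were themselves highest in WT 4. Highest per length were the myelin genes Mbp (1741 TPM) and Mobp (1560 TPM). Oligodendrocyte precursor genes summed to 369 ± 22.8 CPM, with Pdgfra, their growth factor receptor, at 72.2 ± 3.57 CPM.

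The 16 microglial genes had a smaller sum of 550 ± 32.9 CPM. Csf1r, the receptor microglia need to survive, had 75.8 TPM, and the complement gene C1qa had 52.1 TPM. Markers of perivascular macrophages were lower still: Mrc1, a mannose receptor, had 3.93 ± 1.08 CPM and Pf4 had 0.632 CPM. Endothelial genes summed to 875 ± 57.0 CPM, led by Bsg (465 ± 47.6 CPM), which other cells also express, and by the glucose transporter Slc2a1 (92.5 ± 14.2 CPM). Pericyte and smooth muscle genes summed to 261 ± 28.9 CPM, with the pericyte genes Rgs5 at 117 ± 15.6 CPM and Vtn at 67.0 ± 10.1 CPM, and both were highest in WT 6. Ependymal genes summed to 34.4 ± 3.26 CPM, and their regulator of motile cilia, Foxj1, had 9.76 ± 1.36 CPM. Haemoglobin genes were read in every library. Hbb-bs was lowest in WT 4 with 74.5 CPM and highest in WT 5 with 142 CPM, and 34.2% of its words were unique.

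Genes of neighbouring regions and of the choroid plexus were also read. The 12 genes of neocortex and subiculum summed to 521 ± 11.0 CPM and differed 1.06-fold between libraries. Hypothalamic and pituitary hormone genes were close to 0, the 12 of them summing to 3.99 to 10.6 CPM with 3 above a mean of 1 CPM. The lists for thalamus and habenula, for striatum and for choroid plexus were uneven between libraries, as described after the overall variation.

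**Figure D2:**
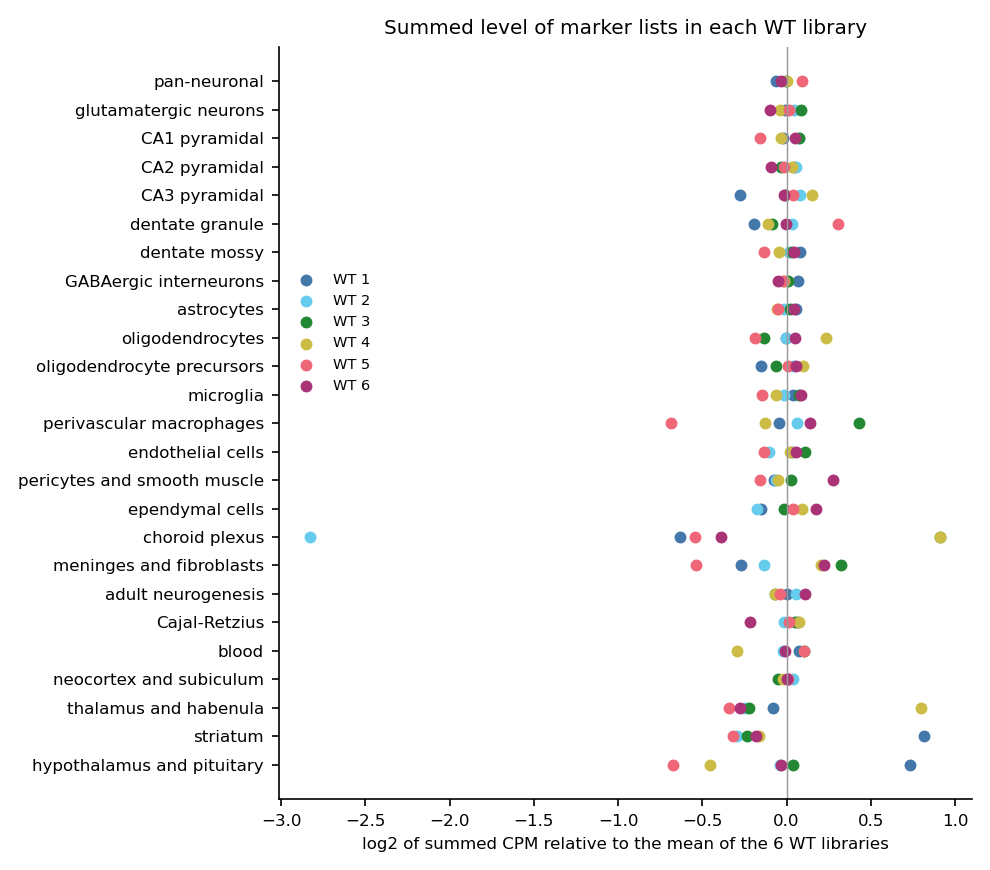
Summed CPM of each marker list in each WT library, as log2 relative to the mean of the 6 libraries, 1 point per library. The pan-neuronal list differed 1.11-fold between its highest and lowest library and the choroid plexus list 13.4-fold, with WT 2 lowest; WT 4 stands apart in the thalamus and habenula list and WT 1 in the striatum list.

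For AMPA and kainate receptors the highest per length were Gria2 (357 TPM), the subunit that blocks calcium entry, Gria1 (262 TPM) and the kainate subunit Grik5 (249 TPM). For NMDA receptors Grin2b led with 1089 TPM on the deposited length, followed by the obligatory subunit Grin1 (141 TPM). With joined exons Grin2b had 97.5 TPM and Grin1 had 176 TPM, so that order turns with the length. Among GABA-A receptors, the cerebellar subunit Gabra6 had 0.165 CPM. Glutamate receptor totals were lowest in WT 1 and highest in WT 5, the libraries at the ends of the trend with exon length given below (Spearman −0.27 in WT 1 and 0.27 in WT 5), whose part in this was not tested. The 9 AMPA and kainate receptor genes summed to 2418 CPM in WT 1 and 3197 CPM in WT 5. The 7 NMDA receptor genes summed to 1181, 1596, 1480, 1486, 1646 and 1374 CPM in WT 1 to WT 6. The GABA-A receptor total differed 1.06-fold.

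The vesicle fusion machinery was even between mice. Its 16 genes summed to 13292 ± 259 CPM, and Syp, Nsf, the ATPase that takes SNARE complexes apart (2262 TPM), Vamp2, the vesicle SNARE (1583 TPM), and Snap25 led. Glycolytic genes summed to 6909 ± 410 CPM, led by Aldoa (2210 TPM), and 12 of 16 were highest in WT 1. Heat shock genes summed to 2851 ± 165 CPM. Hsp90ab1, a constitutive chaperone, was among the most even of abundant genes at 1447 ± 29.4 CPM.

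Immediate early genes, which neurons switch on with activity, were not silent. Highest per length were the receptor scaffold Homer1 (102 TPM) and the transcription factors Nr4a1 (60.2 TPM) and Egr3 (52.3 TPM). Arc, which controls synaptic strength, had 108, 129, 129, 102, 122 and 110 CPM, and Fos had 24.1, 16.3, 16.8, 22.1, 21.8 and 22.6 CPM. Npas4, a factor of activity-dependent inhibition, varied most of the list with 7.29, 12.8, 15.4, 11.9, 19.1 and 14.5 CPM, lowest in WT 1 and highest in WT 5. The summed list of 29 genes differed 1.07-fold between libraries.

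Variation between the 6 mice was measured as excess CV, the coefficient of variation of CPM after removal of the part that counting alone gives. Over 14632 genes with a mean of 1 CPM or more the median excess CV was 7.63%, and 9676 genes (66.1%) stayed at or below 10%. An excess CV of 30% or more was found for 495 genes (3.38%), of 50% or more for 148 and of 100% or more for 20. The last gene inside the 30% line had 30.02% and the first outside had 29.98%. Variable genes were mostly scarce: 289 of the 495 had a mean of 1 to 5 CPM and 18 had 100 CPM or more. By class, 14 of 63 processed pseudogenes (22.2%) were variable, against 25 of 213 TEC genes (11.7%), 16 of 273 lincRNAs (5.86%) and 404 of 13501 protein-coding genes (2.99%). The minimum was a mean of these same libraries, so a gene could pass it through a single library where it was high. In all 6 libraries, 40 of the 63 processed pseudogenes and 13109 of the 13501 protein-coding genes reached 1 CPM. The classes were not matched for abundance, so these shares are no result about the classes. Genes with under 50% unique words were variable in 6.83% of cases and the others in 3.27%.

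**Figure D3:**
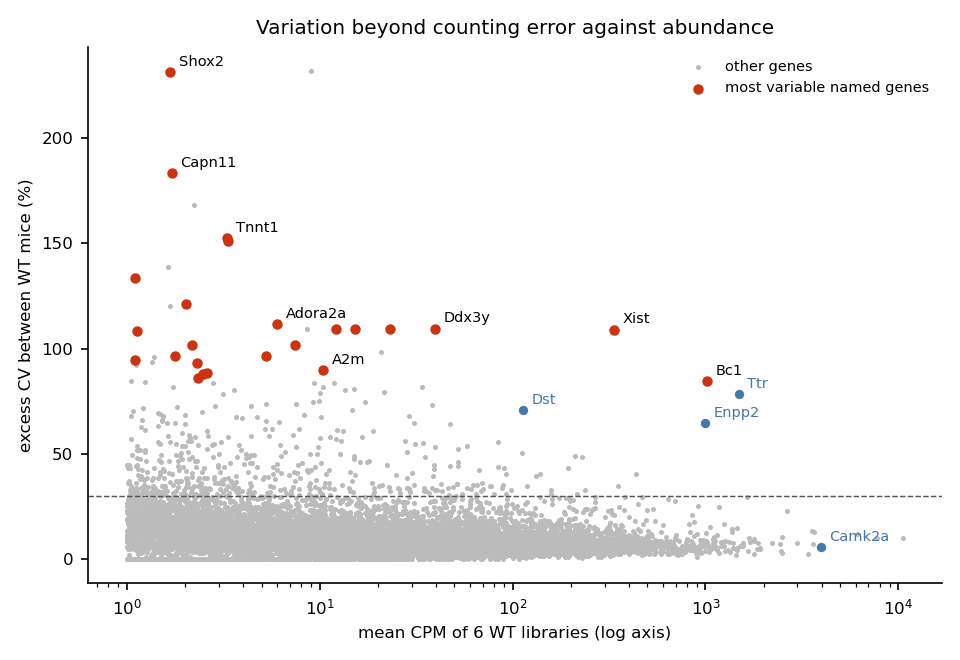
Excess CV between the 6 WT mice (%) against mean CPM (log axis) for 14632 genes, 1 point per gene; the dashed line is 30% and the most variable named genes are red. The bulk of the genes lies under the line, with a median of 7.63%, and few variable genes have high CPM, among them Bc1, Ttr, Enpp2, Xist and Dst.

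The choroid plexus genes were uneven between mice. Of 18 listed genes 17 were in the table, and all 17 were at or above 30%, with a median excess CV of 68.0%. Ttr, transthyretin, the thyroid hormone carrier that the plexus secretes, had 1037, 77.9, 2878, 2973, 982 and 1002 CPM in WT 1 to WT 6. Enpp2, autotaxin, had 573, 243, 1828, 1732, 708 and 886 CPM. Kl, the anti-ageing hormone klotho, had 54.8, 33.5, 145, 139, 64.7 and 65.3 CPM. Aqp1, the water channel of the plexus, had 5.74, 0.777, 20.0, 22.0, 6.85 and 7.28 CPM. WT 3 and WT 4 were high, WT 2 was low and the other 3 lay between.

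That order was shared by the whole list. In 17 of 17 genes WT 2 was lowest and WT 3 and WT 4 were above the other 4 libraries. The mean of WT 3 and WT 4 was 3.67 times WT 2 for Cldn1, a tight junction protein, 8.76 times for the median gene and 40.0 times for Tmem72. The same order was found in 88 of the 495 variable genes (17.8%) and in 252 of all 14632 (1.72%). Genes outside the list with this order, singled out after their values were seen, included F5, coagulation factor V (8.16, 3.73, 38.7, 46.6, 18.9 and 13.9 CPM), and Mfrp (5.36, 0.671, 24.2, 24.2, 8.76 and 8.11 CPM). The list summed to 1776, 387, 5187, 5174, 1892 and 2098 CPM in WT 1 to WT 6, against 646 to 8209 CPM (median 3064) in the other 17 libraries. None of the other 17 was as low as WT 2, and 4 were as high as WT 4 or higher. Ependymal genes, which line the same ventricles, differed 1.27-fold between WT libraries. How much plexus each dissection held was not tested. The 16 genes of meninges and fibroblasts summed to 216, 238, 326, 301, 180 and 304 CPM, lowest in WT 5 and highest in WT 3, a range of 1.81-fold.

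Promoter windows of choroid plexus genes are shown because their transcripts moved together. Windows of 300 bases, from 250 before to 50 after the start, were taken from RefSeq (GRCm38.p6), where 12 of the 17 genes had 18 windows. The letters TAATCC, which the factor OTX2 of the plexus recognises, or their reverse GGATTA stood in 1 of the 18 windows, that of Otx2 itself, and in 7.06% of 32851 windows of all genes. The TATA letters TATAAA or TTTATA stood in 4 windows, those of Cldn2, Kcnj13, Slc4a5 and another start of Otx2, against 13.6% of all. A match is only a match of letters, and no match says only that these letters are not in the window. The windows of Slc4a5, a bicarbonate transporter (chr6:83237125-83237424, plus strand), and of Otx2 (chr14:48665060-48665359, minus strand) are given 5′ to 3′ with the matched letters in capitals.
Slc4a5: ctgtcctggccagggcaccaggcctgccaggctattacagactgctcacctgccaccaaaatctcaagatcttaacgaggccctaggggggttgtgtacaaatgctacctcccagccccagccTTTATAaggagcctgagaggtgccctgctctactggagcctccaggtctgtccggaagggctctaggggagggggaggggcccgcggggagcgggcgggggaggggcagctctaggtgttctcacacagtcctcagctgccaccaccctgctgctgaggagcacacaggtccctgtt
Otx2: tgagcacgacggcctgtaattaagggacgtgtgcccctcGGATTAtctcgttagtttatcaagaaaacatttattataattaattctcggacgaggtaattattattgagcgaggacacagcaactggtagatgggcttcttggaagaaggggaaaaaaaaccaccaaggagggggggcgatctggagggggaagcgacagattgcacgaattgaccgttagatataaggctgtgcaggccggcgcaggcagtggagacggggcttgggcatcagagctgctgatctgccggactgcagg
Slc4a5 had 4.39, 0.600, 18.5, 19.5, 7.16 and 5.77 CPM in WT 1 to WT 6, and Otx2 had 6.11, 2.51, 12.7, 15.0, 4.89 and 5.93 CPM.

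Thalamic genes were high in WT 4 alone. Tcf7l2, a transcription factor of thalamic and habenular neurons, had 22.9 CPM in WT 4 and 3.64 to 5.02 CPM in the other 5 libraries. Prkcd, a protein kinase C of the thalamus that is also a CA3 marker, had 95.5 CPM in WT 4 and 21.5 to 30.4 CPM elsewhere. Zic1 had 41.9 CPM there and 10.5 to 16.9 CPM elsewhere. Of the 10 listed genes with a mean of 1 CPM or more, 8 had an excess CV of 30% or more, and the list sum was 461 CPM in WT 4 against 209 to 251 CPM in the others. Further genes that stood above the next library by more than 2 times in WT 4 included Shox2, a homeobox factor (9.64 CPM in WT 4 and 0 to 0.290 CPM elsewhere), Tnnt1 (13.7 CPM and 0.928 to 1.60 CPM), the peptide receptor Vipr2 (7.06 CPM and 0.722 to 1.26 CPM) and Slitrk6 (5.27 CPM and 0.879 to 1.29 CPM). There were 17 such genes in WT 4, of which 4 were on the thalamus list. Shox2, on chromosome 3 (66971727 to 66981771, GRCm38), had an excess CV of 231%.

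Striatal genes were high in WT 1 alone. The adenosine receptor Adora2a had 19.7 CPM in WT 1 and 2.20 to 3.99 CPM in the other 5, and the enkephalin gene Penk had 109 CPM and 31.9 to 37.5 CPM. Dopamine receptors Drd1 (19.6 CPM in WT 1, 7.33 to 9.74 CPM elsewhere) and Drd2 (11.9 CPM in WT 1, 3.59 to 4.87 CPM elsewhere) had the same pattern. All 10 genes of the list were highest in WT 1 and 8 had an excess CV of 30% or more. The list sum was 519 CPM in WT 1 against 237 to 264 CPM in the others. By the same measure 18 variable genes exceeded the next library by more than 2 times in WT 1, of which 6 were on the striatum list. The hypothalamic peptide gene Trh was also highest there, with 3.54 CPM against 0.330 to 1.18 CPM. What share of WT 1 or WT 4 came from neighbouring tissue was not tested.

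A separate pattern joined long transcripts. Among the 18 variable genes with 100 CPM or more, 12 were highest in WT 5 and lowest in WT 1. Dst, a giant linker of the cytoskeleton on chromosome 1 (33908225 to 34308661), had 41.7, 133, 69.5, 101, 266 and 72.9 CPM. Srrm2, a splicing scaffold, had 89.4, 268, 158, 225, 380 and 149 CPM. Map1a, a microtubule protein of dendrites, had 228, 494, 353, 495, 724 and 320 CPM. The others were Macf1, Ank3, Sptb, Myh10, Chd3, Eif4g3, Apc, Ncor1 and Mprip. Their joined exons ran from 8443 to 41155 bases with a median of 12826.5, against 6054.5 for all genes of that abundance. Of all 495 variable genes, 141 had WT 5 highest and WT 1 lowest, beside 1630 of all 14632 genes.

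The pattern went with a trend across all genes in these libraries. The Spearman correlation across 14624 genes between the deviation of a library from the WT mean and exon length was −0.27 in WT 1, 0.23 in WT 2, −0.15 in WT 3, 0.17 in WT 4, 0.27 in WT 5 and −0.19 in WT 6. Genes are not independent replicates, and no test was made. With smooth trends of each library with length and GC content removed, 7 of the 12 long genes still had an excess CV of 30% or more, among them Dst with 50.7% and Srrm2 with 42.9%, and Ank3 had 26.6%. RNA integrity values were not used here. Within p16KO the excess CV of Dst was 11.6% and of Srrm2 13.0%, and within AppNLGF_p16KO it was 54.3% and 67.3%.

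**Figure D4:**
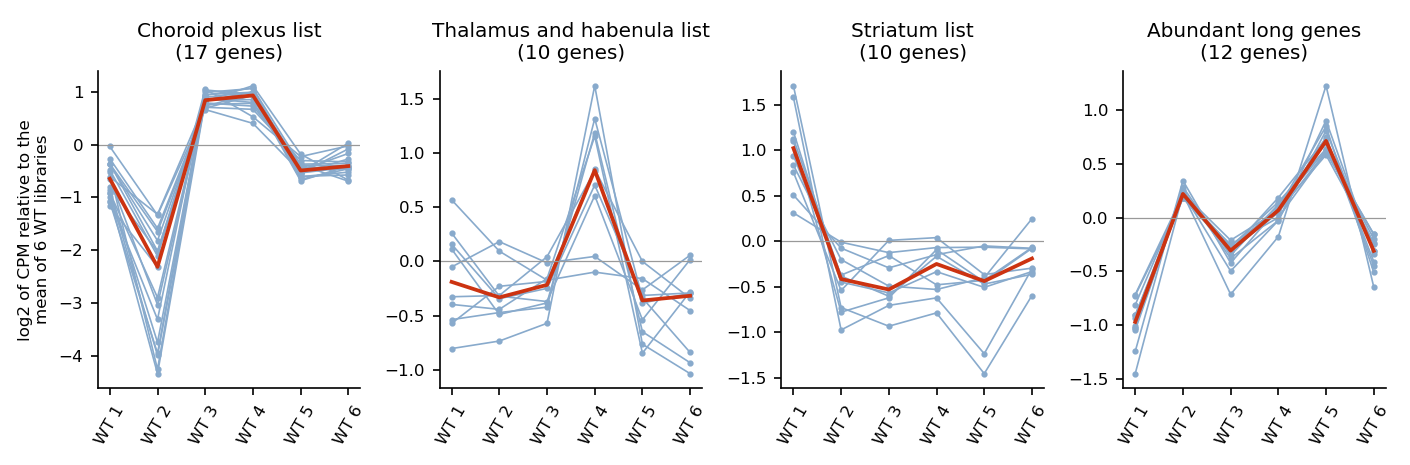
CPM of single genes (thin lines) and their median (red) in the 6 WT libraries, as log2 relative to the WT mean, for 3 marker lists and for the 12 abundant long genes; lines join the points of a gene and imply no order of mice. Choroid plexus genes are low in WT 2 and high in WT 3 and WT 4, thalamic genes high in WT 4, striatal genes high in WT 1, and long genes low in WT 1 and high in WT 5.

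Genes of the sex chromosomes were switch-like. Xist, the RNA that silences an X chromosome, had 713, 605 and 692 CPM in WT 2, WT 3 and WT 6, and 3.34 CPM in WT 1 and 2.62 CPM in WT 5, with WT 4 close to these. Ddx3y, a Y-linked helicase, had 81.0, 0, 0, 82.0, 73.8 and 0.309 CPM, and Uty, Kdm5d and Eif2s3y followed it. Libraries with high Xist (WT 2, WT 3 and WT 6) had Y-linked genes at or near 0, as in female mice. The other 3 (WT 1, WT 4 and WT 5) had the reverse, as in male mice. The labels used here do not give sex, and the edgeR model below had no term for it. All 5 Y-linked genes above 1 CPM were variable, against 9 of 502 X-linked genes.

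The serine protease inhibitors of the Serpina3 cluster on chromosome 12 gave another switch. Serpina3f (104214544 to 104221129) had 3.37, 3.11, 0.0181, 2.66, 5.71 and 0 CPM, and Serpina3m had 2.45, 3.30, 0, 3.17, 5.17 and 0 CPM. WT 3 and WT 6 had next to no reads for both. Serpina3n, a reactive astrocyte gene of the same cluster, had 120, 138, 49.3, 124, 195 and 47.6 CPM, lowest in the same libraries. A2m, alpha-2-macroglobulin, had 28.5 CPM in WT 3 and 3.36 to 11.5 CPM in the other 5. Capn11, a calpain on chromosome 17, had 8.17 CPM in WT 5 and 0.290 to 0.687 CPM elsewhere. Ndn, an imprinted growth suppressor of neurons, was highest in WT 2 with 254 CPM and had 116 to 169 CPM elsewhere.

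Some pseudogenes had reads in some mice and almost none in others. Gm15459, on chromosome 5 with 1.16% unique words, had 51.8 CPM in WT 1 and at most 0.635 CPM in the other libraries. Ndufa12-ps had 9.41 CPM in WT 4 and 10.3 CPM in WT 6, against at most 0.136 CPM elsewhere. Glns-ps1 had 9.41, 9.97 and 10.2 CPM in WT 2, WT 3 and WT 4, against at most 0.859 CPM in the other 3. Gm7049 on chromosome 13 and Gm11868 on chromosome 4 were high in the same 3 libraries. In all, 51 genes had a library below 10% of the highest library. They comprised 35 protein-coding genes, 10 processed pseudogenes and 6 non-coding genes, 9 were on the choroid plexus list, and in 24 WT 2 was the only library so low. Reads from a copy and its parent gene cannot be separated where few words are unique.

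Genes that follow time of day, stress hormones and immune state were set beside the 3.38% of all genes at 30% or more. Of 17 clock genes 0 reached 30%, which is near that share for so few genes. Dbp, an output factor of the clock, had 93.9, 79.6, 88.9, 88.6, 52.6 and 48.1 CPM, low in WT 5 and WT 6. Ciart, a clock repressor, had 14.0, 13.7, 14.6, 11.9, 7.11 and 7.99 CPM, and Arntl, whose product BMAL1 drives the clock, had 32.6, 31.8, 31.1, 30.4, 39.3 and 43.5 CPM. Arntl was thus highest in the libraries where Dbp and Ciart were lowest. Time of death was not given in the labels used here. Among 14 genes induced by glucocorticoids, 2 were variable: Plin4, a lipid droplet protein (0.749, 2.51, 2.63, 1.32, 1.14 and 0.344 CPM), and Hif3a (6.52, 11.1, 13.6, 6.51, 4.21 and 3.26 CPM). Sgk1, a kinase, had 67.1 CPM in WT 5 and 102 to 157 CPM in the other libraries. Of 21 interferon response genes above 1 CPM, 0 were variable, again near the share of all genes. Of 13 antigen presentation genes, 4 were: Cd74, H2-Aa, H2-Ab1 and H2-Eb1, all of class II presentation. Cd74, the invariant chain, had 3.32, 2.90, 7.76, 3.69, 1.56 and 3.69 CPM, and all 4 were highest in WT 3.

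At the other end, some abundant genes varied little beyond counting error. Mbtps1, a protease of the Golgi, had 107, 107, 109, 109, 109 and 108 CPM (108 ± 0.960 CPM), with an excess CV of 0. Opa1, which fuses inner mitochondrial membranes, had 229 ± 2.40 CPM, Hp1bp3, a chromatin protein, 286 ± 3.19 CPM, Pip4k2b, a lipid kinase, 186 ± 2.28 CPM, and Syt11, a synaptotagmin, 906 ± 11.2 CPM. The excess CV of these 4 ran from 0.573% for Opa1 to 1.16% for Syt11.

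The same measure was taken within each of the other genotypes, whose libraries had no part in choosing the genes variable in WT. The median excess CV was 7.63% in WT, 7.76% in p16KO, 7.88% in AppNLGF and 11.2% in AppNLGF_p16KO. Genes at or above 30% numbered 495 (3.38%) in WT, 526 (3.60%) in p16KO, 495 (3.36%) in AppNLGF and 992 (6.77%) in AppNLGF_p16KO. These shares are of the genes with a mean of 1 CPM or more in that genotype. Of the 495 WT genes, 249 (50.3%) were also so in p16KO, 207 (41.8%) in AppNLGF and 340 (68.7%) in AppNLGF_p16KO, while 114 were so in all 3 and 66 in none. Unlike the shares above, these counts had no minimum CPM in the other genotype. Scarce genes were also more often variable: in WT, 289 of 2878 genes with a mean of 1 to 5 CPM reached 30%. Of the 25 most variable named genes, 23, 17 and 24 reached 30% in p16KO, AppNLGF and AppNLGF_p16KO. Ttr, for example, had 78.3% in WT, 86.6% in p16KO, 41.1% in AppNLGF and 56.1% in AppNLGF_p16KO. Bc1 had 84.4% in WT, 82.0% in p16KO, 15.6% in AppNLGF and 66.5% in AppNLGF_p16KO. These are descriptions without a test.

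**Figure D5:**
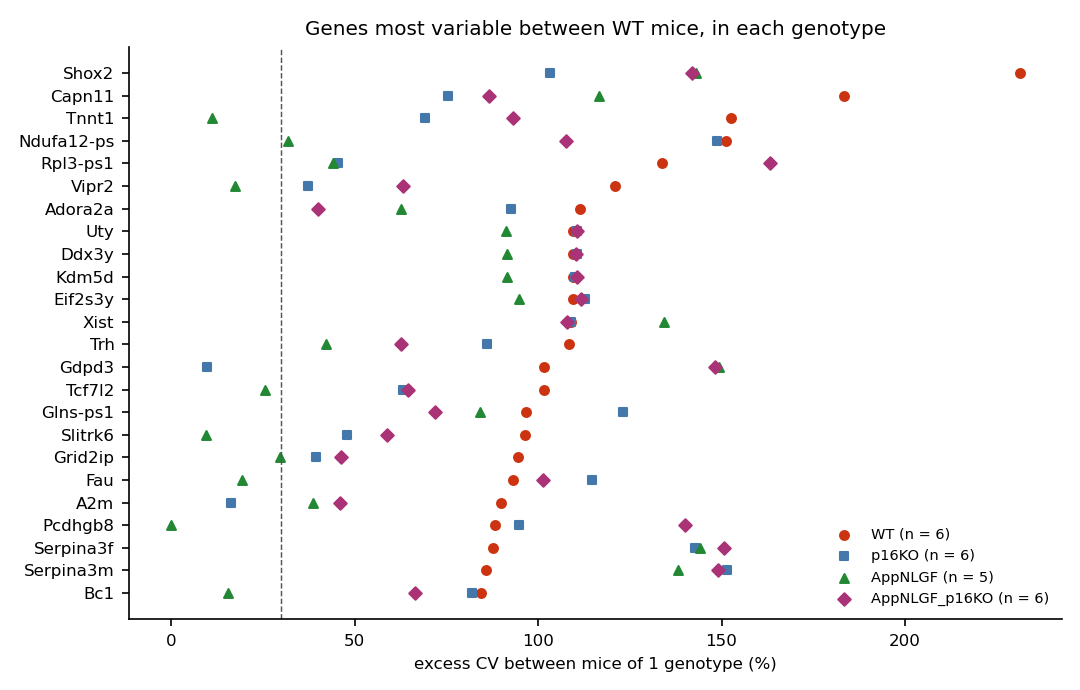
Excess CV (%) of named genes most variable between WT mice, in each of the 4 genotypes; red circles are WT and the dashed line is 30%. Most of the genes lie at or above the line in every genotype, with more of them under it in AppNLGF than in p16KO or AppNLGF_p16KO.

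Levels in WT were then compared with the mean of the other 3 genotypes, in 1 edgeR model of all 23 libraries. Of 19423 genes tested, 307 (1.58%) passed an adjusted p of 0.05. WT was higher for 49 (0.252%) and lower for 258 (1.33%). Of the 20 genes with most reads 0 were called, and 0 of the 20 highest in TPM and 0 of the 25 most variable named genes. Of the 495 variable genes 3 were called, all higher in WT, including Gm7292 and Gm35021. The predicted gene Gm7292 was high in 3 of 6 WT libraries, WT 2, WT 4 and WT 6, and the predicted gene Gm35021 in 2 of 6.
The number of calls rested on single libraries. It was 49 without WT 5, 62 without WT 4, 102 without WT 2, 112 without WT 3, 141 without WT 6 and 497 without WT 1. It was 201 without p16KO 9, 204 without AppNLGF 14, 166 without AppNLGF 15 and 900 without AppNLGF_p16KO 23. With the length and GC trends removed it was 114, and without both WT 1 and WT 4 it was 61.

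Microglial genes had more calls than any other of the 44 lists. WT was lower for 8 of 16, including Trem2, Aif1, Tyrobp, C1qa, C1qc, C1qb and Tmem119. The median log2 difference of the list was −0.28, against 0.01 over all genes tested. Tyrobp, the signalling adaptor of Trem2, had 12.5, 11.1, 13.3, 11.4, 10.8 and 13.2 CPM in WT. Its means were 14.0 in p16KO, 24.5 in AppNLGF and 25.9 in AppNLGF_p16KO. The log2 difference was −0.77 ± 0.07 (SE, edgeR quasi-likelihood test, adjusted p = 1.29e-06), and all 6 WT libraries were below the mean of the others. For Trem2, a lipid receptor of microglia, the WT mean was 11.3 CPM, with 13.2 in p16KO, 22.9 in AppNLGF and 23.8 in AppNLGF_p16KO (log2 difference −0.76 ± 0.07, adjusted p = 1.29e-06). Cst7, a cystatin of activated microglia, had 0.0724 to 0.363 CPM in WT, against a median of 3.75 CPM in the other 17 libraries. Ccl6 and Clec7a were also lower in WT. As background, Trem2 and Tyrobp mark microglia that gather at amyloid plaques. The p16KO means given here lay closer to WT than to the knock-in means.

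Few genes of the other lists were called, beside 1.58% of all genes tested. The median log2 difference was −0.30 for antigen presentation, with 2 of 15 genes called, −0.31 for the 2 ferritins, with 1 called, and 0.32 for perivascular macrophages, with 0 of 7 called. In astrocytes 1 of 14 genes was called, Gfap, the intermediate filament of reactive astrocytes, at 336 ± 32.0 CPM in WT and 475 CPM in the others (log2 difference −0.48 ± 0.07, edgeR adjusted p = 0.00109). Among 29 immediate early genes, Nr4a3 and Egr1 were higher in WT, and 26 of 29 differences were positive with a median of 0.17. Over all genes tested, 10002 of 19423 differences were positive. Genes of a list are not independent replicates, and the signs were not tested. Nr4a3 had 105 ± 9.32 CPM in WT and 89.0 CPM in the others (log2 difference 0.25 ± 0.05 with its SE, edgeR adjusted p = 0.0210). Psmb8 and Tap1 of antigen presentation, Ftl1, Pgk1, Hspe1, Tubb6 and Ap2s1 were lower in WT, and Etv1 of the cortical list was higher. Neuronal, interneuron, oligodendrocyte, endothelial, choroid plexus, thalamic and striatal lists had 0 genes called. For lists this short that is near the share of all genes, so it is no result about these lists.

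The genes higher in WT with the smallest p were Frrs1l, Rnf20, Usp29, Zfp110 and Nr4a3. Frrs1l, which helps assemble AMPA receptors, had 546, 553, 536, 518, 572 and 557 CPM in WT, and means of 409 in p16KO, 515 in AppNLGF and 405 in AppNLGF_p16KO (log2 difference 0.32 ± 0.06, edgeR adjusted p = 0.0112). It lies on chromosome 4 (56957173 to 56990391), as do Rnf20, a ubiquitin ligase of histones (49632006 to 49656887), and Nr4a3 (48045153 to 48086447). Usp29 (6730578 to 6967219) and Zfp110 (12834761 to 12850577) lie on chromosome 7. Whether position played a part was not tested. With length and GC trends removed the adjusted p was 0.0536 for Frrs1l, 0.248 for Usp29 and 0.0543 for Nr4a3, past the threshold no longer, with log2 differences of 0.25 for Frrs1l, 0.15 for Usp29 and 0.21 for Nr4a3. Without WT 1 and WT 4 it was 0.0727 for Rnf20, 0.0785 for Usp29, 0.0575 for Zfp110 and 0.0615 for Nr4a3, with log2 differences of 0.26, 0.31, 0.30 and 0.28. Leaving out single WT libraries also ended calls. Without WT 5 the adjusted p was 0.0533 for Frrs1l, 0.0756 for Rnf20, 0.0827 for Usp29 and 0.0955 for Nr4a3. Without WT 4 it was 0.0565 for Rnf20 and Zfp110, 0.0712 for Usp29 and 0.0689 for Nr4a3. Without WT 2 it was 0.0515 for Rnf20, 0.0673 for Usp29 and 0.0755 for Nr4a3, and for Zfp110 it was 0.0618 without WT 3 and 0.0582 without WT 6.

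Shares of the transcriptome were compared between 6 WT and 17 other libraries by a two-sided exact permutation test over 100947 splits, for 6 measures. Pseudogenes held 0.101 ± 0.00213% of WT reads and 0.106 ± 0.00378% of the others (difference −0.00576 percentage points, exact permutation p = 0.00234, adjusted p = 0.0140). No other measure passed. The mitochondrial share was 3.45% in WT and 3.52% in the others (adjusted p = 0.631), and protein-coding genes held 98.6% in both (adjusted p = 0.544).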

How the data were processed

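Per the labels' protocols, poly-A RNA (350 ng) was made into Illumina Stranded mRNA libraries with 12 PCR cycles, read as 50 bases on a NextSeq 2000, cleared of rRNA reads, and uniquely aligned unambiguous reads were counted. Per the submitters' processing notes, the tools include cutadapt 4.2, Bowtie2 2.3.5, STAR 2.7.10b and DESeq2 1.45.3. The authors deposited raw read counts per gene, the gene class and a median transcript length. Of 37060 genes shared with GENCODE M21, 36795 had identical coordinates, so positions are GRCm38. CPM (scaled to a library's total count), TPM (per deposited length or per joined exon length) and excess CV were computed from those counts with Python 3.11.15, numpy 2.4.6, pandas 2.3.3 and scipy 1.17.1. WT was set against the mean of the other 3 genotypes with edgeR 4.0.16 (quasi-likelihood, TMM, filterByExpr minimum count 10, limma 3.58.1, R 4.3.3; DESeq2 1.42.0 as an alternative), and p-values were adjusted by Benjamini-Hochberg over all genes tested. The script was tested on simulated data. Libraries hold no molecular identifiers, and each replicate is 1 animal with its own dissection and library. The p-values therefore measure the spread of animal, dissection and library together.

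Genes named are the 20 highest in CPM and in TPM, the 3 highest in TPM of each class with at least 0.1% of counts, the 3 highest in TPM and the most variable of each of 44 lists, the 25 most variable named genes, the 5 least variable at 100 CPM or more, and the 5 smallest p in each direction. Other genes were chosen after their values were seen. The members and lists were chosen with earlier results of these data known. Some genes within these rules are not reported here.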

Additional observations from a re-analysis of the deposited data

Results flagged for a closer look

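For 127 values (44 list sums, 24 genes among the most variable, 51 other named genes and 8 library measures) the gap between the WT library farthest out and its nearest neighbour was divided by the range of the 6 libraries. The ratio passed Dixon's 95% limit for 18 of them. Of those 18, 11 were among the 24 genes chosen for their variability, so for these the ratio describes and tests nothing. Outside these genes it passed for 5 of 44 list sums, 2 of 51 other named genes and 0 of 8 library measures, where chance passes about 1 in 20.

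In WT 4 the ratio was 0.834 for the thalamus and habenula list and 0.654 for the blood list. Among genes in WT 4 it was 0.97 for Shox2, 0.947 for Tnnt1, 0.928 for Tcf7l2, 0.914 for Vipr2, 0.907 for Slitrk6 and 0.802 for Grid2ip, and all 6 genes were high there. In WT 1 it was 0.905 for the striatum list, 0.898 for Adora2a, 0.868 for Fau and 0.737 for Trh, all high.

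In WT 5 Capn11 (0.95) and mt-Nd4 (0.637) were high. In WT 6 the heat shock list (0.659) was high and the Cajal-Retzius list (0.674) low. In WT 3 A2m (0.675) was high, and in WT 2 Snap25 (0.706) was low. The cause was not tested for any of them.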

How the results depend on the processing

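No paired analysis was possible because the replicate numbers 1 to 23 are not shared between genotypes. The 307 calls of WT against the other genotypes became 858 with DESeq2, 114 with length and GC trends removed and 61 without WT 1 and WT 4 (both alternatives chosen after seeing the data), and 49 to 900 when single libraries were left out. Leaving out WT 2 turned the sign of the mitochondrial share difference (0.0140 percentage points, range −0.164 to 0.0140, against −0.0701) and of the top-10 share difference (0.00654, range −0.167 to 0.00654, against −0.0776). The cause was not tested. Per length, protein-coding genes held 97.7%, long non-coding classes 1.92% and pseudogenes 0.149% (0.104% when mitochondrial genes were left out), and with joined exons 704 genes held 50% of TPM and 9 of the 20 highest in TPM stayed. The 495 variable genes became 1593 with a mean of at least 0.2 CPM, 206 with at least 5 CPM, 313 by edgeR's tagwise dispersion, and 406 to 574 without single libraries. Of the 25 most variable, 12 stayed when ranked by the SD of log2 values, 16 by dispersion, and 17 to 22 without single libraries. For single named genes of WT against others, 7 of 70 settings and 13 of 230 fits without a library ended a call. Genes with few reads or few unique words limit what these counts can show.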
